A study of Homo sapiens with 6 samples.

Results

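The MAPK feedback inhibitor genes of the DUSP, SPRY and SPRED families were examined in MCF10A cells given a microRNA mimic or a control microRNA. They are the 10 genes DUSP1, DUSP4, DUSP5, DUSP6, DUSP7, SPRY1, SPRY2, SPRY4, SPRED1 and SPRED2. Members were found by gene symbol alone, as every probe set whose annotation carries one of these symbols. This gave 22 of the 54613 probe sets tested, and 10 of 19775 genes. A probe set is a group of short probes on the array that together report 1 transcript, and 0 of the 22 were annotated to a second gene. MCF10A is an established, non-tumorigenic line of human mammary epithelial cells. One group was transfected with miR-221 and miR-222 (the mimic arrays below) and the other with a control microRNA (the control arrays), each with 3 biological replicates and 1 single-colour array per replicate. Both groups are the same cell line and both were transfected, so all comparisons are between mimic-transfected and control-transfected MCF10A cells. The sources used here give neither the dose nor the time between transfection and harvest, and they do not name the control sequence.

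MAP kinase signalling runs from growth factor receptors through Ras, RAF and MEK to the kinase ERK, and the activated pathway switches on genes that restrain it. DUSP genes of this group encode dual-specificity phosphatases that remove phosphate from both the threonine and the tyrosine of activated MAP kinases. Sprouty (SPRY) and Spred proteins act upstream, on the steps from receptor to Ras and RAF, and Spred proteins do so by bringing the Ras inactivator neurofibromin to the membrane. Because ERK induces several of these genes, their transcripts are often read as a record of ERK activity, although each also answers to other signals.

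The microRNAs that were delivered are shown because they are the only difference between the groups that the labels name. Their mature 3p strands, from RefSeq (GRCh38.p14), lie on the minus strand of chromosome X, at chrX:45746180-45746202 for miR-221 and chrX:45747036-45747056 for miR-222. The labels do not say which strand the mimic carried. Capitals mark bases 2 to 8, the seed, which does most of the pairing with messenger RNA.
hsa-miR-221-3p: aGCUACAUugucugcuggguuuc
hsa-miR-222-3p: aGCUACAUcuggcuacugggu
Both microRNAs share the seed GCUACAU, and they differ in length, with 23 and 21 bases. Target sites in the member transcripts were not analysed here.

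Values are log2 intensities normalized by the authors, so a difference of 1 is a 2-fold change. The array medians lay between 7.59 and 7.66. Correlations across probe sets were 0.9953 to 0.998 between arrays of one group and 0.9821 to 0.9858 between arrays of different groups. Precision is limited by having 6 arrays. The 3' minus 5' log2 signal of ACTB, a sign of RNA integrity, was 0.334, 0.350 and 0.387 in the mimic arrays and 0.360, 0.291 and 0.310 in the control arrays (exact two-sided permutation p = 0.3, where 3 against 3 arrays cannot give less than 0.10). For GAPDH it was 0.024, 0.042 and 0.030 in the mimic arrays and 0.023, -0.046 and -0.004 in the control arrays (exact permutation p = 0.1). The GAPDH groups did not overlap, and the part of RNA integrity in the results below was not tested. Of 9 measured mammary epithelial markers, 7 were lower (16.3% of all genes were) and 1 was higher (14.1% of all genes) in the mimic arrays. Their summed log2 value was 99.89 to 100.81 there, against 107.69 to 108.32 in the control arrays. EPCAM and CDH1, which mark epithelial cells, were among those that fell, by 1.54 and 0.56 on the log2 scale. KRT14 (-2.23) and KRT5 (-1.73) fell most of the 9, and LAMB3 rose by 0.46. The summed values of markers of other cell types were also slightly lower in the mimic arrays, at 67.23 to 67.92 against 68.40 to 68.46 for 8 fibroblast markers, 59.34 to 60.43 against 60.64 to 60.80 for 8 endothelial markers and 45.66 to 46.31 against 47.10 to 47.15 for 6 blood cell markers. Of these other-cell markers, 1 of 8 fibroblast genes rose and 2 fell, 0 of 8 endothelial genes rose and 1 fell, and 1 of 6 blood cell genes rose and 1 fell, where 14.1% of all genes rose and 16.3% fell. The endothelial gene that fell was KDR (-1.48) and the blood cell gene CD14 (-1.15). The fibroblast list split, with DCN up by 1.66 and FAP (-1.60) and LUM (-1.06) down. ITGAM was the blood cell gene that rose (0.21). All were named after their values were seen, and the median changes of the 3 lists were 0.05, 0.06 and 0.00. The part of these marker shifts in the results was not tested.

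The feedback inhibitors moved in both directions, and the split ran within as well as between families. In bulk RNA, fewer cells that express a gene and less RNA per cell cannot be told apart. The phosphatase genes DUSP6, DUSP7 and DUSP4 fell in the mimic arrays, and DUSP1 and DUSP5 rose. SPRY1 and SPRY2 rose while SPRY4 did not pass the test, and both SPRED genes fell by small amounts. Each gene was read at its brightest probe set (the highest mean of the 6 arrays) and tested with limma, with p-values adjusted by Benjamini-Hochberg over all probe sets and a threshold of 0.05. By this test 4 of the 10 genes were higher (14.1% of all genes were) and 5 were lower (16.3% of all genes), so 9 of 10 passed, where 30.4% of all genes did. The 3 mimic arrays lay entirely above the 3 control arrays for 4 genes (23.7% of all genes) and entirely below them for 5 (21.9% of all genes). The median change of the 10 genes was -0.18, beside 0.03 over all genes, and the members ranged from -1.65 to 1.34. The plot of values by array shows the groups apart for every gene but SPRY4.

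**Figure D1:**
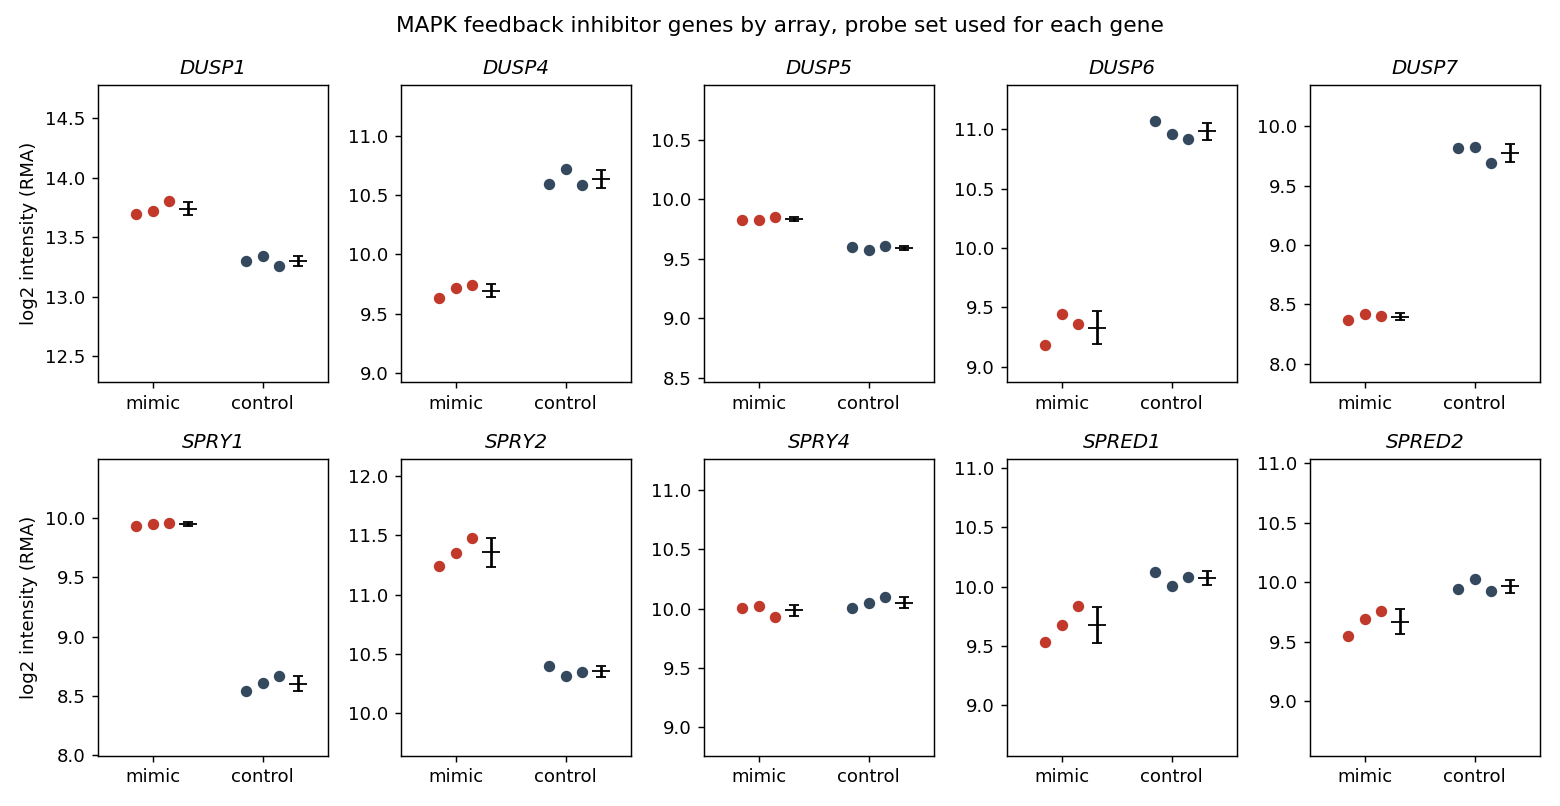
Log2 intensity (vertical axes, each spanning 2.5 log2 units) of the 10 genes on the 3 mimic arrays (red, left) and the 3 control arrays (dark, right), at the probe set used for each gene. Points are single arrays and the bar beside them is the mean with its SD (n = 3). The mimic arrays lie below the control arrays for DUSP4, DUSP6, DUSP7, SPRED1 and SPRED2, above them for DUSP1, DUSP5, SPRY1 and SPRY2, and overlap them for SPRY4.

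Among the phosphatases, DUSP6 and DUSP7 encode cytoplasmic enzymes selective for ERK, and both fell. DUSP6 had log2 values of 9.18, 9.45 and 9.36 in the mimic arrays, against 11.06, 10.96 and 10.92 in the control arrays. Every mimic array was more than 1 log2 unit below every control array. The change was -1.65 ± 0.08 (SE), which is 3.14-fold lower in the mimic arrays (limma adjusted p = 7.61e-08). It was the largest change among the 10 members and the 144th largest fall among the 19775 genes. All 3 DUSP6 probe sets fell, the other ones with changes of -1.72 and -1.16.

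DUSP7 had values of 8.37, 8.42 and 8.41 in the mimic arrays and 9.82, 9.83 and 9.69 in the control arrays. The groups were far apart relative to the spread within them. DUSP7 was 2.60-fold lower in the mimic arrays, with a change of -1.38 ± 0.06 (SE; limma adjusted p = 5.54e-08). Its second probe set, which was dimmer, changed by -0.64 ± 0.07 (SE; adjusted p = 3.53e-05).

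DUSP4 encodes a nuclear phosphatase that acts on ERK, JNK and p38 and that ERK itself induces. Its values were 9.63, 9.71 and 9.74 in the mimic arrays, against 10.60, 10.72 and 10.58 in the control arrays, with no overlap. It was 1.92-fold lower in the mimic arrays, with a change of -0.94 ± 0.07 (SE; adjusted p = 1.5e-06). The 3 DUSP4 probe sets all fell, and the one used, the brightest, gave the smallest change. The others changed by -1.16 ± 0.07 and -1.51 ± 0.09 (SE).

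DUSP1 and DUSP5 encode inducible nuclear phosphatases, and their transcripts moved the other way. DUSP1, an immediate early gene that also answers to stress and glucocorticoids, had values of 13.69, 13.72 and 13.80 in the mimic arrays, against 13.30, 13.34 and 13.26 in the control arrays. All mimic arrays were above all control arrays, by less than 1 log2 unit. DUSP1 was 1.36-fold higher in the mimic arrays, a change of 0.44 ± 0.06 (SE; adjusted p = 0.00031). A second probe set rose by 0.49 ± 0.07 (SE). That probe set carries the suffix x_at, given to probe sets that can bind several transcripts. The third DUSP1 probe set did not pass, at 0.01 ± 0.07 (SE; adjusted p = 0.958), and its 2 groups overlapped.

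DUSP5, whose product is selective for ERK, has 1 probe set. Its values were 9.82, 9.83 and 9.85 in the mimic arrays and 9.60, 9.57 and 9.61 in the control arrays. The difference was small but the replicates were tight, with an SD of 0.02 in each group. DUSP5 was 1.18-fold higher in the mimic arrays, with a change of 0.24 ± 0.06 (SE; adjusted p = 0.00941).

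The Sprouty genes encode inhibitors of receptor kinase signalling that act upstream of ERK. SPRY1 had values of 9.93, 9.95 and 9.96 in the mimic arrays and 8.54, 8.61 and 8.67 in the control arrays. The mimic arrays agreed to within 0.03 and lay over 1 log2 unit above the control arrays. SPRY1 was 2.53-fold higher in the mimic arrays, a change of 1.34 ± 0.06 (SE; adjusted p = 5.51e-08), and it stood 89th from the top among all genes ranked by rise. Its dimmer second probe set rose by 0.55 ± 0.08 (SE; adjusted p = 0.000241).

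SPRY2, with 1 probe set, had values of 11.24, 11.35 and 11.48 in the mimic arrays, against 10.40, 10.31 and 10.35 in the control arrays. The groups did not overlap. It was 2.001-fold higher in the mimic arrays, with a change of 1.001 ± 0.07 (SE; adjusted p = 1.85e-06).

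SPRY4, also with 1 probe set, had values of 10.001, 10.022 and 9.929 in the mimic arrays, against 10.001, 10.046 and 10.094 in the control arrays. The groups overlapped, and SPRY4 was the only member that did not pass. The change was -0.06 ± 0.06 (SE; adjusted p = 0.515), with a 95% confidence interval of -0.20 to 0.07, and it was 0.01 after a second quantile normalization. The interval for SPRY2, 0.84 to 1.16, and that for SPRY1, 1.20 to 1.48, lay wholly above it. The difference between the Sprouty genes was not itself tested.

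The SPRED genes encode membrane proteins related to Sprouty. SPRED1 had values of 9.53, 9.68 and 9.83 in the mimic arrays, against 10.12, 10.01 and 10.08 in the control arrays. The mimic arrays were all lower, but spread over 0.30 log2 units. SPRED1 was 1.31-fold lower in the mimic arrays, a change of -0.39 ± 0.08 (SE; adjusted p = 0.00408). All 3 of its probe sets fell, the others by 0.37 (adjusted p = 0.0108) and 0.25 (adjusted p = 0.035).

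SPRED2 had values of 9.55, 9.69 and 9.76 in the mimic arrays and 9.94, 10.03 and 9.93 in the control arrays. The groups did not overlap. It was 1.23-fold lower in the mimic arrays, with a change of -0.30 ± 0.07 (SE; adjusted p = 0.00914). The other SPRED2 probe sets changed by -0.11 ± 0.07 and -0.08 ± 0.09 (SE) and did not pass. Both were dim, with means at or below the 32.4th percentile of all probe sets.

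Counted by probe set, 6 of the 22 were higher (11.6% of all probe sets were) and 12 were lower (13.1%), so 18 passed, where 24.8% of all probe sets did. In 0 of the 10 genes was 1 probe set higher and another lower. The size of the change did differ between probe sets of 1 gene, most in log2 units for DUSP7 and SPRY1, where the dimmer probe set gave less than 50% of the log2 change of the brighter one. For DUSP4 the order was the other way, with the largest change at its dimmest probe set. Whether the probe sets report different transcript forms was not tested.

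**Figure D2:**
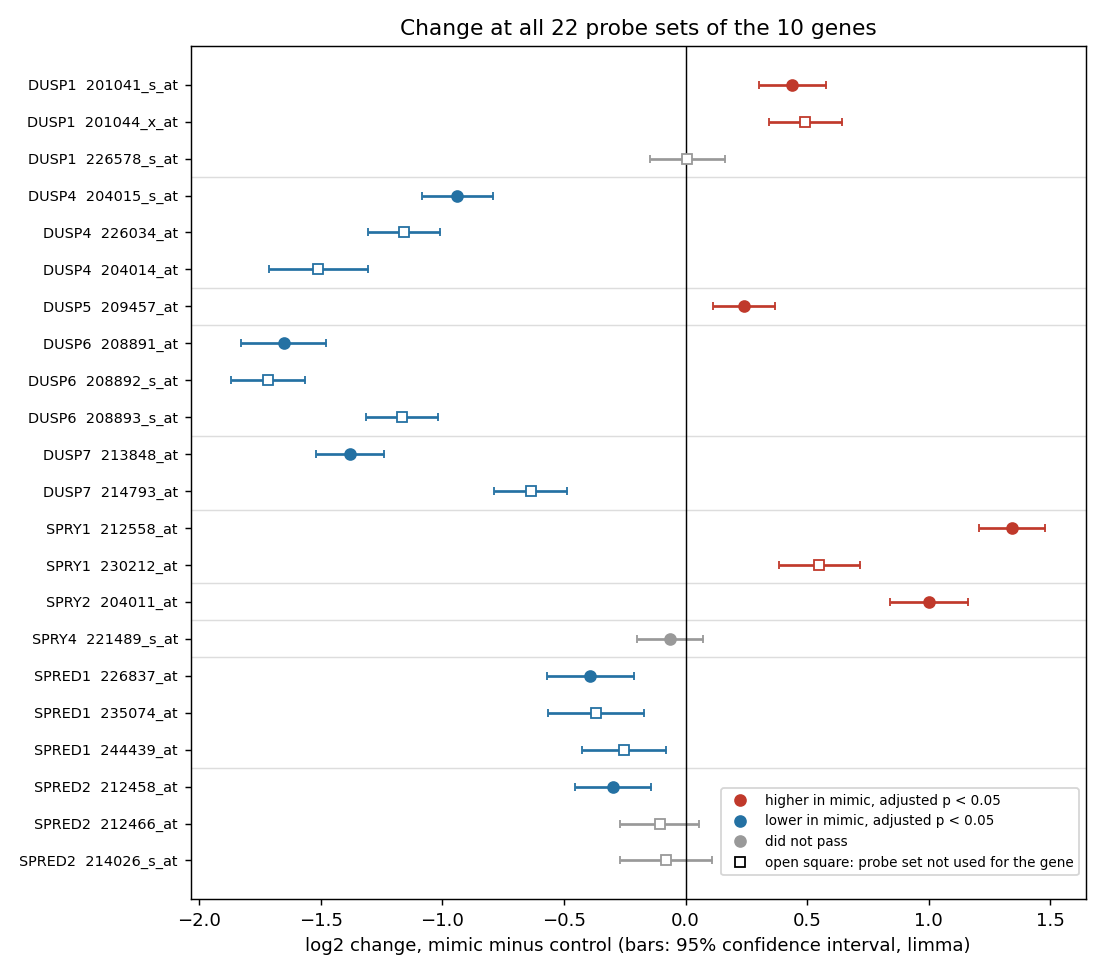
Log2 change, mimic minus control (horizontal axis), at each of the 22 probe sets of the 10 genes, with 95% confidence intervals from limma. Filled circles are the probe sets used for the genes and open squares the others, red where higher, blue where lower and grey where the test was not passed. All 8 probe sets of DUSP4, DUSP6 and DUSP7 lie left of 0, and the 3 of SPRY1 and SPRY2 lie right of 0.

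Within the mimic group, mimic replicate 1 gave the lowest value at 16 of the 22 member probe sets, including those used for all members but SPRY4. Over all probe sets it was the lowest mimic array at 41.8%. It was thus low for members that fell and for members that rose. Without mimic replicate 1, the same count of 4 higher and 5 lower was found, and so it was without each of the other arrays in turn.

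The genes with the profile most like that of DUSP6 were found by the root mean square difference over the 6 arrays, after subtracting from each gene its mean over the control arrays. They were TMEM97, at a difference of 0.053 log2 units and with a change of -1.66, SYBU (0.053, change -1.61) and SLC6A14, an amino acid transporter gene (0.065, change -1.61). For SPRY1 they were FGB, which encodes the fibrinogen beta chain (0.038, change 1.32), PDK4, a kinase that inhibits pyruvate dehydrogenase (0.056, change 1.29), and TP53I3 (0.057, change 1.41).

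Among the other MAP kinase phosphatases DUSP10 changed most. Of 5 measured, 1 rose and 2 fell (14.1% and 16.3% of all genes), with a median change of -0.16, and so few genes cannot be set apart from that background. DUSP10, which acts on p38 and JNK rather than ERK, averaged 10.60 ± 0.11 in the mimic arrays, against 9.91 ± 0.05 in the control arrays (SD, n = 3 each), a change of 0.69 ± 0.07 (SE; limma adjusted p = 2.51e-05), and both its probe sets rose. DUSP16, which acts on JNK and p38, changed by -0.20 ± 0.06 (SE; adjusted p = 0.0333), and DUSP2, an inducible nuclear phosphatase, by -0.26 ± 0.08 (SE; adjusted p = 0.0394). Those calls did not hold throughout. The DUSP16 call was lost without mimic replicate 1, 2 or 3, or without control replicate 1 or 3, with adjusted p-values from 0.0525 to 0.122, with the replicate block (adjusted p = 0.0599), after quantile normalization (0.144) and with all its probe sets averaged (0.121). The DUSP2 call was lost without mimic replicate 1 or 2 or control replicate 2 or 3, with adjusted p-values from 0.113 to 0.134. DUSP8 (0.05 ± 0.08) and DUSP9 (-0.16 ± 0.08, SE) did not pass, although DUSP9 did with array weights (-0.22, adjusted p = 0.0225).

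Of 14 other measured feedback regulators of receptor kinase and Ras signalling, 2 were higher and 3 lower, with a median change of -0.08. These counts are near the background of 14.1% higher and 16.3% lower over all genes. LRIG1, which promotes loss of EGF family receptors, fell most, with means of 7.59 ± 0.05 in the mimic arrays, against 8.69 ± 0.03 in the control arrays (SD, n = 3 each) and a change of -1.10 ± 0.06 (SE; adjusted p = 2.11e-07). It fell on 2 of its 4 probe sets. ERRFI1, a feedback inhibitor that binds the EGF receptor kinase domain, averaged 13.74 ± 0.06 in the mimic arrays, against 13.08 ± 0.02 in the control arrays, a change of 0.66 ± 0.06 (SE; adjusted p = 1.18e-05). RASAL2, a Ras GTPase-activating protein gene, changed by -0.52 ± 0.09 (SE), and TRIB1, a pseudokinase gene, by -0.36 ± 0.07 (SE). RASAL2 fell on 3 of its 8 probe sets and rose on 1, and TRIB1 fell on 1 of 3. SOCS3 and RASA2 did not pass at the probe sets used, but each fell on 1 other. SOCS3 fell there by 1.05 (limma adjusted p = 1.56e-06) and RASA2 by 0.31 (adjusted p = 0.0106). The remaining Sprouty and Spred relatives SPRY3 (0.16 ± 0.09) and SPRED3 (0.07 ± 0.06, SE) did not pass.

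In the ERK cascade itself 5 of 16 measured genes rose (14.1% of all genes did) and 3 fell, near the 16.3% of all genes, with a median change of 0.07. The Ras-related GTPase genes RRAS2 and RRAS rose, by 1.44 ± 0.06 and 0.81 ± 0.07 (SE), RRAS2 on all 3 of its probe sets. RRAS2 averaged 12.10 ± 0.05 in the mimic arrays, against 10.66 ± 0.05 in the control arrays (SD, n = 3 each; adjusted p = 3.77e-08). KSR1, a scaffold for RAF, MEK and ERK, changed by -0.73 ± 0.06 (SE), but on only 1 of its 4 probe sets. MAPK3, which encodes ERK1, one of the kinases that DUSP6 and DUSP7 act on, rose by 0.35 ± 0.07 (SE; adjusted p = 0.00229), on an x_at probe set. The MEK genes MAP2K1 (-0.08 ± 0.06) and MAP2K2 (0.00 ± 0.06, SE) did not pass. These are transcript levels, and phosphorylation of the kinases was not measured on these arrays.

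Of 12 measured genes of the p38 and JNK stress kinase pathways, 2 rose and 3 fell, with a median change of -0.05. With so few genes these counts are also near the background of 14.1% and 16.3%. MAP3K1 (-0.47 ± 0.08), MAP2K4 (-0.45 ± 0.08) and the p38 delta gene MAPK13 (-0.34 ± 0.08) fell, and MAP3K5, which encodes the kinase ASK1, rose by 0.27 ± 0.07 (SE). The other MAPK13 probe set fell by 0.79. MAPK8 and MAPK9 did not pass at the probe sets used. Of their others, 2 of MAPK8 fell, by 0.76 and 0.47, and 1 of MAPK9 rose, by 0.31. The number higher was 1 without mimic replicate 1 or 2, without control replicate 1 or 2, after median centring, and with the replicate block.

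Of 20 measured genes listed as other outputs of ERK signalling, 9 fell (16.3% of all genes did) and 5 rose (14.1% of all genes), with a median change of -0.14, beside 0.03 over all genes. EREG, a ligand of the EGF receptor, averaged 6.93 ± 0.17 in the mimic arrays, against 9.55 ± 0.18 in the control arrays (SD, n = 3 each), a change of -2.62 ± 0.10 (SE; adjusted p = 1.98e-08). Its second probe set had a change of 0.02 and did not pass. The transcription factor gene MYC averaged 10.92 ± 0.06 in the mimic arrays, against 12.33 ± 0.11 in the control arrays, a change of -1.41 ± 0.07 (SE; adjusted p = 1.26e-07). IER3, an early response gene, changed by -0.81 ± 0.07 (SE), and JUNB, a subunit of AP-1, rose by 0.98 ± 0.07 (SE; adjusted p = 1.63e-06). CCND1, ETV5 and MCL1 did not pass at the probe sets used, but each passed on 1 other. The changes there were -0.35 for CCND1, -0.30 for ETV5 and 0.29 for MCL1 (limma adjusted p = 0.00547, 0.00787 and 0.0269). The output genes thus held members called on both sides, as did the DUSP genes in the plot of pathway lists.

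**Figure D3:**
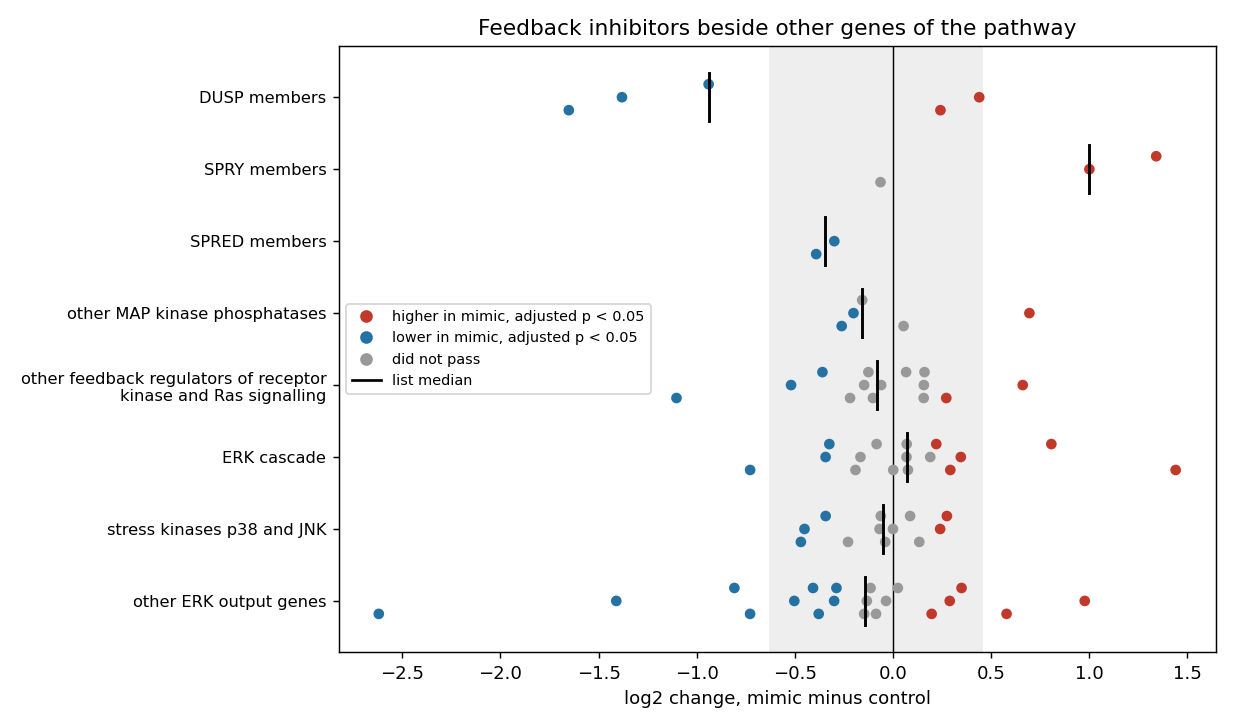
Log2 change, mimic minus control (horizontal axis), of the DUSP, SPRY and SPRED genes and of 5 lists of other pathway genes, 1 point per gene at the probe set used, red where higher, blue where lower and grey where the test was not passed. Black lines are list medians, and the grey band spans the 5th to the 95th percentile of all genes (-0.63 to 0.45). DUSP4, DUSP6 and DUSP7 lie left of the band and SPRY1 and SPRY2 right of it, while DUSP5, SPRY4, SPRED1 and SPRED2 lie inside it, as does DUSP1 at 0.44.

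Promoter sequences are shown for SPRY1 and SPRY2, the members that rose most, and for DUSP6, the member that fell most. DUSP1, a member with a motif match given below, is shown as well. The sequences set letters known from ERK- and cAMP-responsive promoters beside the changes. They come from RefSeq (GRCh38.p14) and hold the 250 bases before a transcription start, given on the gene's strand. The table had 12 such windows for 8 of the 10 genes; DUSP4 and DUSP5 were not matched. Capitals mark a match on either strand to the ETS motif CCGGAA or the cAMP response element TGACGTCA, which do not overlap here. The DUSP6 window holds no match to these exact letters and has no capitals. Looser forms of the motifs were not searched. Of the 12 windows, only those shown for SPRY1, SPRY2 and DUSP1 hold a match. The windows of DUSP7, SPRY4, SPRED1 and SPRED2 and the other windows of SPRY1 and SPRY2 hold none and are not shown.
SPRY1 (chr4:123398136-123398385, plus strand): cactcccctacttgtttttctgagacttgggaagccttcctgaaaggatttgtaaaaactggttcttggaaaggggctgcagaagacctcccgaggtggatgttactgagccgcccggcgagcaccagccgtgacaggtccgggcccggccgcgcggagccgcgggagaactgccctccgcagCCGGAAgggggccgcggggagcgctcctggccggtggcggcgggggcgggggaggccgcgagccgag
SPRY2 (chr13:80341127-80341376, minus strand): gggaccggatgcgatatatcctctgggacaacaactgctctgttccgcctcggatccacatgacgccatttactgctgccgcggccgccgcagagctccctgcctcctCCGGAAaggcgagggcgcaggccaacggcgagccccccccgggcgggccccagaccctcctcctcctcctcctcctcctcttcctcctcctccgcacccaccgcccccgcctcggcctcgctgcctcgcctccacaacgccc
DUSP1 (chr5:172771196-172771445, minus strand): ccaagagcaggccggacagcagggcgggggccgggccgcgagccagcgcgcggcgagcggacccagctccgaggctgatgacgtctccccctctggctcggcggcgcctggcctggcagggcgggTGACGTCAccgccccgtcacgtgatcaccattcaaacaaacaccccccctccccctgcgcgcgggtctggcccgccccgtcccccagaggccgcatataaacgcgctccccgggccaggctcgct
DUSP6 (chr12:89352502-89352751, minus strand): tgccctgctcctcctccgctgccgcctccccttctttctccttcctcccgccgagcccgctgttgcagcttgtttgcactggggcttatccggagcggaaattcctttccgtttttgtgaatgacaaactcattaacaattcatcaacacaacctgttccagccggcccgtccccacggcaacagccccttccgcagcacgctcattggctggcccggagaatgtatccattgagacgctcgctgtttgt

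The ETS motif was found in 2 of the 12 member windows, in 1 of the SPRY1 windows and 1 of the SPRY2 windows, and in 14.5% of all 35116 windows. So few windows cannot be set apart from that background. The cAMP response element was found in 1 member window, that of DUSP1, at positions -125 to -118 from the start, and in 1.65% of all windows. The AP-1 motif TGANTCA (6.57% of all windows), the TCF/LEF motif CTTTGAT (2.26%) and the CArG box bound by serum response factor (1.16%) were found in 0 member windows, both strands searched. SPRY1 has 2 annotated starts and SPRY2 has 3, and the ETS match lay in the window of 1 start each. A match describes letters only, and no binding was measured.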

How the data were processed

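RNA was measured in 3 mimic and 3 control samples on 6 single-colour arrays. The deposited values are log2 intensities that the authors normalized with RMA, per the submitters' processing notes, which state no version or settings. RMA brings the arrays' distributions close together, so it hides any change in the total messenger RNA of a cell, and it shrinks differences between dim values. The deposited distributions were not identical, with array medians from 7.59 to 7.66. That the scale is log2 follows from the range, 3.67 to 14.9. Detection calls were not used, and it is not known which dim values exceed background.

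The 62 control probe sets were left out. By the platform annotation 41091 tested probe sets had 1 symbol, 1801 several and 11721 none here. All probe sets were fitted with limma 3.58.1 in R 4.3.3 (lmFit and eBayes, no trend, not robust), adjusted by Benjamini-Hochberg at 0.05. Errors of differences are moderated standard errors. On simulated data with 54613 probe sets, 59% of 100 changes of 0.5 and 97% of 100 changes of 1 on the log2 scale were recovered. In the real data 13523 probe sets passed, far more than were changed in the simulation, so these shares may not hold there. Tables and figures used Python 3.11.15, pandas 2.3.3, numpy 2.4.6, scipy 1.17.1 and matplotlib 3.10.9.

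The members and gene lists were chosen with earlier results of these data known. Named genes are all members, all other MAP kinase phosphatases, SPRY3, SPRED3, MAP2K1, MAP2K2, MAPK3, from each pathway list up to 4 genes with the largest change among those past the threshold, and the 3 nearest profiles of DUSP6 and SPRY1. SOCS3, RASA2, ARAF, MAPK8, MAPK9, CCND1, ETV5 and MCL1 were added after their values were seen, for probe sets that passed though the one used did not. Listed genes without a value were not analysed here. Alternatives were leaving out the 40% dimmest probe sets, a second quantile normalization, median centring, array weights, eBayes with trend and robust, averaged probe sets, a replicate block, leaving out each array, and stricter thresholds.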

Additional observations from a re-analysis of the deposited data

How the results depend on the processing

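The 10 member genes were recomputed under 13 alternatives, and 129 of the 130 values had the direction and the call reported above. The exception was SPRY4, at 0.013 after a second quantile normalization. That normalization moved the change of every member upward, for example from -0.30 to -0.22 for SPRED2 and from 0.24 to 0.31 for DUSP5. The cause of this shift was not tested. The counts of 4 members higher and 5 lower held under each alternative but 1: with a 1.5-fold minimum, 2 were higher and 3 lower, by construction fewer. Averaging probe sets gave the largest change of any alternative for DUSP4 (-1.20) and the smallest for DUSP1 (0.31), DUSP6 (-1.51), DUSP7 (-1.01), SPRY1 (0.95) and SPRED2 (-0.16). Correlations of the deviations of same-numbered arrays were -0.11, 0.08 and 0.08, and those of the other pairs ran from -0.19 to 0.12. With 3 arrays per group these values cannot decide whether the numbers pair the arrays. With the replicate block, 4 members were higher and 5 lower, and 2683 genes were higher and 3129 lower.

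Small list counts moved. Among the other MAP kinase phosphatases, 1 was lower without the dimmest probe sets, after quantile normalization, with the replicate block and with averaged probe sets, 0 to 1 when an array was left out, and 3 with array weights. Among the other feedback regulators 5 were lower with trend and robust and with averaged probe sets. In the ERK cascade 5 were lower without the dimmest probe sets and with trend and robust. Among the stress kinases 1 was higher after median centring and with the replicate block, and 1 to 2 when an array was left out. The causes were not tested. Over all genes, 2780 were higher and 3233 lower in the main fit, and 2029 to 2913 were higher and 2670 to 3273 lower when an array was left out. With array weights 3905 were higher and 3715 lower. After a second quantile normalization these counts were 3418 and 3027, and after median centring 2303 and 3423. The background shares given above are those of the main fit.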
